A study of Mus musculus with 6 samples.

Results

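The genes described here are 10 negative regulators and feedback targets of Wnt signalling: Notum, Wif1, Dkk1, Apcdd1, Znrf3, Rnf43, Lgr5, Tnfrsf19, Nkd1 and Sp5. They were chosen by name, and each was matched by its symbol to 1 of the 53927 gene rows of the count tables. RNA-seq libraries came from mouse embryonic stem cells (ESCs), 3 in each of 2 serum-free N2B27 media. The group called 2i received 3 µM CHIR99021, an inhibitor of both forms of the kinase GSK3, with 1 µM of the MEK inhibitor PD0325901. The group called BRD0705/PD03 received 8 µM BRD0705, an inhibitor selective for GSK3 alpha, with the same 1 µM of PD0325901. Genotype is labelled WT and the line E14 in both groups, while the growth protocol speaks of B6D2F1 ESCs derived and grown on feeder cells in either medium, so the labels do not settle which cells were used. No untreated cells are in the series, so each difference is between both inhibitor mixtures, and MEK was inhibited throughout. The labels do not say whether the 3 libraries of a group were separate cultures, so p-values measure library-to-library spread, which may be technical only.

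Wnt proteins bind Frizzled receptors and the co-receptors Lrp5 and Lrp6, which stops GSK3 from marking beta-catenin for destruction, and beta-catenin then switches on target genes together with TCF/LEF factors. Many of those targets act back on the pathway and damp it at the ligand, at the receptor or inside the cell. CHIR99021, which inhibits both forms of GSK3, stabilises beta-catenin below the receptor and is used in 2i medium for that action. BRD0705 is reported to leave GSK3 beta active and not to stabilise beta-catenin. The RNA counts used here measure neither GSK3 beta activity nor beta-catenin protein. Secreted and receptor-level antagonists act above GSK3 in the pathway.

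The libraries held 16968959 to 51180228 counts. All 8 ESC markers examined, among them Pou5f1 and Nanog, had counts in every library. Their summed level was 2641 to 2826 CPM (counts scaled to a common effective library total) in BRD0705/PD03 and 4073 to 4166 in 2i. Of the 8, 5 were called lower in BRD0705/PD03, 2 higher (Zfp42 and Sall4) and 1 was not called (Sox2). Tfcp2l1 differed most in CPM, with means of 423 in BRD0705/PD03 and 1312 in 2i. Markers of fibroblasts, the usual feeder cells, were also present in every library. The 20 markers summed to 1108, 1460 and 1652 CPM in BRD0705/PD03 replicates 1 to 3 and to 634 to 662 CPM in 2i, none was at 0 in any library, and 18 of 20 were called higher in BRD0705/PD03. The edgeR test called 0 of them lower, with 1 lower at an unadjusted p under 0.05 and 0 lower by DESeq2. Counts of marker calls stand against 61.4% of all tested genes called, 30.1% as higher and 31.4% as lower. The 7 primitive streak markers, a tissue where several of the members are normally active, summed to 8.79 to 9.47 CPM in BRD0705/PD03 and 5.3 to 6.7 CPM in 2i (3 higher, 1 lower and 1 not called of 5 tested), and the 6 primitive endoderm markers to 5.2 to 5.88 and 4.66 to 5.16 CPM (2 higher, 1 lower and 2 not called of 5 tested). The share called was 80% of the tested streak and 60% of the tested endoderm markers. T, Fgf8 and Eomes among the streak markers and Foxa2 and Pdgfra among the endoderm markers were called higher. Eomes and Pdgfra lay above 0.335 CPM, the filter level given below, in every library. T, Fgf8 and Foxa2 lay under it in every 2i library. They could be tested only because BRD0705/PD03 was higher, while Gsc, called lower, passed the filter only through 2i. The part of these cell types in the levels of the members was not tested. In bulk RNA, fewer cells of a type and less RNA per cell cannot be told apart.

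Of the 10 genes, 7 could be tested and 3 were too low: Dkk1, Wif1 and Lgr5. The filter asked for about 0.335 CPM, equal to 10 counts in a library of median size, in 3 libraries. Each of the 7 tested genes lay above that level in all 6 libraries. The quasi-likelihood test of edgeR over 20422 genes called 2 members higher in BRD0705/PD03 (Sp5 and Nkd1), 3 lower (Apcdd1, Notum and Znrf3) and did not call Tnfrsf19 and Rnf43. When a fibroblast score was added to the model (the fibroblast covariate), Sp5, Nkd1 and Znrf3 were not called and Tnfrsf19 was called lower. That fit called 5199 of all tested genes, against 12544 without the score. In the fit without the score, 61.4% of all tested genes were called at an adjusted p under 0.05, 30.1% as higher and 31.4% as lower. The 5 called members of 7 (71.4%) are thus near the share of any genes. Groups that do not overlap were seen for 5 of the 7 members and for 66.0% of all tested genes. The median log2 fold change of the 7 was -0.12, and that of all tested genes 0.0003. The median size of the change, without its sign, was 1.00 for the 7 and 0.40 for all tested genes. Against a fold of 1.5, the test called 4 of the 7 members (Apcdd1, Notum, Sp5 and Nkd1) and 24.9% of all tested genes. The members thus moved in both directions, and the plot of fitted changes shows Sp5 and Nkd1 at one end and Apcdd1 and Notum at the other.

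**Figure D1:**
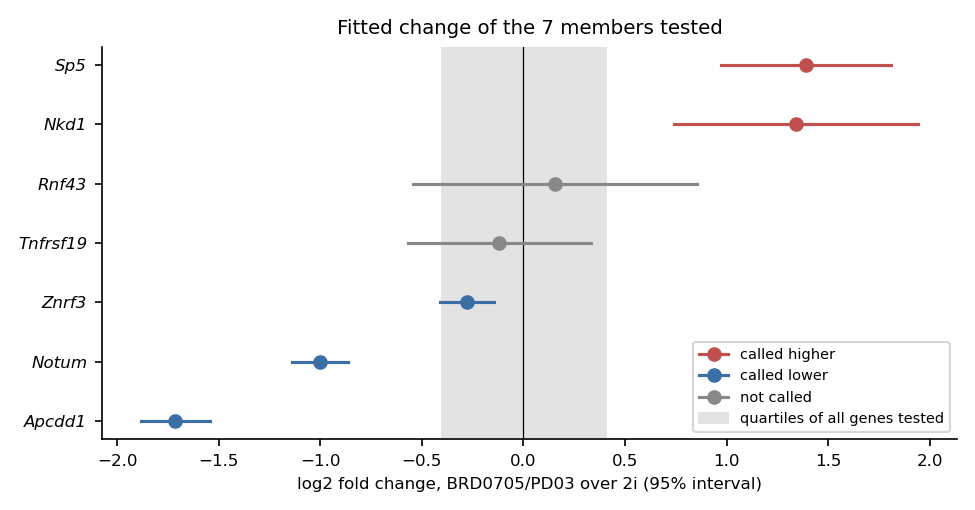
Log2 fold change of BRD0705/PD03 over 2i on the x axis for the 7 members tested, as points with 95% intervals, with the quartiles of all 20422 tested genes as a grey band from -0.40 to 0.41. Sp5 and Nkd1 lie to the right of the band, Notum and Apcdd1 to the left, and the interval of Znrf3, a small change, reaches from -0.41 to -0.14.

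Of Notum, Wif1 and Dkk1, the secreted antagonists among the 10 genes, Notum was the most abundant, and it stood lower in BRD0705/PD03. Notum is a secreted enzyme that removes the fatty acid from Wnt proteins and so inactivates them, and it lies on chromosome 11 (GRCm38, 120653788 to 120661175, minus strand). The BRD0705/PD03 libraries held 31.1, 30.1 and 28.2 CPM of Notum and the 2i libraries 65.0, 60.3 and 54.0 CPM. The groups did not overlap, and the lowest 2i library lay well above the highest BRD0705/PD03 library. Means were 29.8 ± 1.5 and 59.8 ± 5.53 CPM (SD, n = 3 each), and Notum fell by 1.00 ± 0.06 (SE) on the log2 scale in the edgeR fit (adjusted p = 9.09e-10), so that 2i held 2.0 times the level. The annotated antisense gene Notumos shares 29.4% of the exonic bases of Notum, and Myadml2os, also antisense, shares 8.72%. Notumos stood at 4.2 ± 0.639 CPM against 7.2 ± 0.0569 CPM in 2i and was also called lower (-0.77 ± 0.12, adjusted p = 2.06e-05), while Myadml2os was not called (-0.41 ± 0.24, adjusted p = 0.149). No source used here gives the strand setting of the counting, and reads of Notum and of these partners cannot be told apart with certainty.

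Wif1, which encodes a secreted protein that binds Wnt proteins, was close to the limit of detection (chromosome 10, 121033960 to 121100650, plus strand). It had 0, 3 and 2 counts in BRD0705/PD03 replicates 1 to 3 and 3, 17 and 6 counts in 2i replicates 1 to 3. Scaled for depth these are 0, 0.109 and 0.049 CPM against 0.178, 0.339 and 0.236 CPM, and the groups did not overlap. In BRD0705/PD03 replicate 1, a count of 0 allows up to 0.0923 CPM, the level of 3 counts there. Over the groups, 26 counts in 2i against 5 in BRD0705/PD03 give a level 5.68 times higher in 2i, with an exact 95% interval of 2.14 to 18.9 that covers counting error only. Without a filter on low counts Wif1 was called lower (-2.31 ± 0.72 over 38414 genes, adjusted p = 0.00492).

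Dkk1, a secreted antagonist that binds the co-receptors Lrp5 and Lrp6, was also too low to test (chromosome 19, 30545863 to 30549665, minus strand). BRD0705/PD03 libraries had 7, 7 and 13 counts and 2i libraries 3, 17 and 14. The 2i libraries spanned 0.178 to 0.552 CPM and enclosed the range of BRD0705/PD03, 0.215 to 0.318 CPM. The pooled ratio of BRD0705/PD03 over 2i was 0.727 with an exact 95% interval of 0.422 to 1.24, and no difference was detectable at this depth. Without the filter the change was -0.44 ± 0.46 (adjusted p = 0.498).

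**Figure D2:**
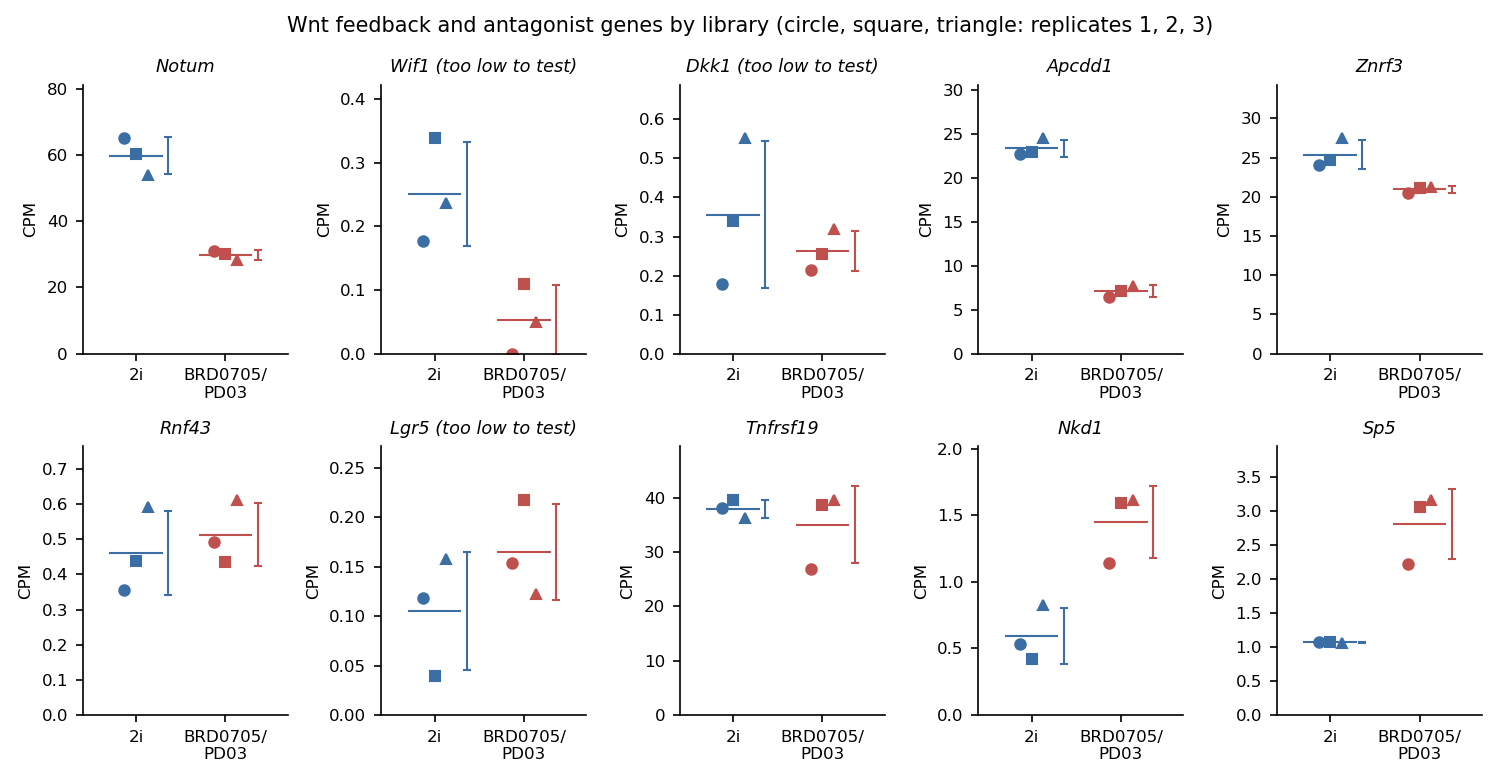
CPM on the y axis (linear, from 0, scaled per gene) in each of the 6 libraries for the 10 genes, 2i in blue and BRD0705/PD03 in red, with the group mean as a line and the SD as a bar, which is cut at 0 for Wif1. The groups stand apart for Notum, Wif1, Apcdd1, Znrf3, Nkd1 and Sp5 and overlap for Dkk1, Rnf43, Lgr5 and Tnfrsf19.

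Of the members that act at the cell membrane, Apcdd1 showed the largest fall of the 7 tested genes. It encodes a membrane glycoprotein that binds Wnt proteins and Lrp5 and inhibits the pathway (chromosome 18, 62922231 to 62961179, plus strand). BRD0705/PD03 libraries held 6.43, 7.15 and 7.74 CPM of Apcdd1, and 2i libraries held 22.8, 22.9 and 24.5 CPM. The groups were far apart, with means of 7.11 ± 0.655 and 23.4 ± 0.966 CPM (SD, n = 3 each). The log2 fold change was -1.71 ± 0.08 (adjusted p = 1.18e-12), a level 3.28 times higher in 2i. No other annotated gene overlaps Apcdd1.

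Znrf3 and Rnf43 are membrane ubiquitin ligases that remove Frizzled receptors from the cell surface, and both are known targets of beta-catenin. Znrf3 (chromosome 11, 5276324 to 5444847, minus strand) held 20.4, 21.1 and 21.3 CPM in BRD0705/PD03 and 24.0, 24.7 and 27.5 CPM in 2i. The groups did not overlap, but the gap between them was small, and 2i held 1.21 times the level (-0.28 ± 0.06, adjusted p = 0.000985). Znrf3 was not called against a fold of 1.5 (adjusted p = 1) or with the fibroblast covariate (-0.34 ± 0.20, adjusted p = 0.244). Rnf43 (chromosome 11, 87662722 to 87735539, plus strand) had only 12 to 25 counts in BRD0705/PD03 and 6 to 22 in 2i. Its levels of 0.435 to 0.612 and 0.356 to 0.591 CPM overlapped, and it was not called (0.16 ± 0.33, adjusted p = 0.707). The 95% interval of its change, -0.54 to 0.86, still holds changes as large as that of Znrf3 in either direction.

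Lgr5, a receptor for R-spondins and a marker of stem cells in several adult epithelia, had 5, 6 and 5 counts in BRD0705/PD03 and 2, 2 and 4 counts in 2i (chromosome 10, 115450311 to 115587780, minus strand). R-spondins bound to Lgr receptors clear Znrf3 and Rnf43 from the membrane and so raise the response to Wnt. The pooled ratio of BRD0705/PD03 over 2i was 1.83 with an exact 95% interval of 0.74 to 4.95, and no difference was detectable at this depth (0.80 ± 0.76 without the filter, adjusted p = 0.485). Lgr4, another receptor for R-spondins, stood at 251 ± 7.54 CPM in BRD0705/PD03 and 109 ± 2.28 CPM in 2i (1.20 ± 0.04, adjusted p = 8.44e-15). Per kilobase of exon these levels are 42.6 and 18.6 CPM, against 0.016 and 0.0103 for Lgr5.

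Tnfrsf19, also called Troy, encodes a receptor of the TNF receptor family and is a known target of beta-catenin (chromosome 14, 60963875 to 61046490, minus strand). It held 26.9, 38.6 and 39.6 CPM in BRD0705/PD03 and 38.1, 39.7 and 36.3 CPM in 2i. Replicates 2 and 3 of BRD0705/PD03 lay within the range of 2i, and replicate 1 lay below all other libraries. The gene was not called (-0.12 ± 0.17, adjusted p = 0.597, 95% interval -0.57 to 0.33). Without BRD0705/PD03 replicate 1 the change was 0.04 ± 0.05 (adjusted p = 0.52), and with the fibroblast covariate the gene was called lower (-1.15 ± 0.19, adjusted p = 0.000141).

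Inside the cell, Nkd1 and Sp5 were both higher in BRD0705/PD03, at low levels. Nkd1 encodes a protein that binds Dishevelled, the factor that passes the signal on from Frizzled, and inhibits it (chromosome 8, 88521354 to 88594884, plus strand). Its counts were 37, 44 and 66 in BRD0705/PD03 and 9, 21 and 21 in 2i, or 1.14, 1.60 and 1.62 CPM against 0.533, 0.418 and 0.828 CPM. The lowest BRD0705/PD03 library exceeded the highest 2i library. Nkd1 rose 2.54-fold (log2 fold change 1.34 ± 0.29, 95% interval 0.74 to 1.94, adjusted p = 0.000462). It was not called with the fibroblast covariate (0.59 ± 0.79, adjusted p = 0.648).

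Sp5, a zinc finger transcription factor that is a direct target of beta-catenin and represses other targets, also rose (chromosome 2, 70474923 to 70477729, plus strand). BRD0705/PD03 libraries had 72, 84 and 129 counts, equal to 2.22, 3.05 and 3.16 CPM. The 2i libraries had 18, 54 and 27 counts, equal to 1.07, 1.08 and 1.06 CPM. The 2i libraries were nearly equal, and the lowest BRD0705/PD03 library lay above them all. Sp5 rose 2.62-fold (1.39 ± 0.20, 95% interval 0.97 to 1.81, adjusted p = 6.25e-06). Sp5, too, was not called once the fibroblast covariate was in the model (0.47 ± 0.51, adjusted p = 0.56). Whether the changes of Sp5 and Nkd1 differ from each other was not tested.

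Promoters of the members were searched for the TCF/LEF motif, written as CTTTGAA or CTTTGAT on either strand, in the 250 bases before each annotated start. RefSeq (GRCm38.p6) gave 8 promoters for 6 of the 10 genes: Sp5, Nkd1, Rnf43, Tnfrsf19, Dkk1 and Wif1. The motif was found in 3 of the 8, and in 7.48% of 32851 promoters of the same length. Shown are both genes that rose, Sp5 with a match and Nkd1, at a start inside the gene, without one. The downstream start of Tnfrsf19, which also has a match, is shown too. Sequences run 5′ to 3′ on the strand of the gene, and capitals mark the motif.
Sp5, chr2:70474673-70474922, plus strand: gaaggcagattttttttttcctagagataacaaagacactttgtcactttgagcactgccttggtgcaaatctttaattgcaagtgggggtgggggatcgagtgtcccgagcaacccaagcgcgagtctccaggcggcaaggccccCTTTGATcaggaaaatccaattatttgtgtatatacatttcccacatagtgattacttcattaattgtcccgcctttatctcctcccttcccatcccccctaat
Nkd1, chr8:88527383-88527632, plus strand: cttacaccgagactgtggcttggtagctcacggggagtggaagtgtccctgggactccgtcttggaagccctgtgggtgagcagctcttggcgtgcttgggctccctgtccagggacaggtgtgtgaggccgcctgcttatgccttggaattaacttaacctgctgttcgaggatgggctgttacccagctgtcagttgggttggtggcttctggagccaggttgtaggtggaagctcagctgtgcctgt
Tnfrsf19 downstream start, chr14:61037988-61038237, minus strand: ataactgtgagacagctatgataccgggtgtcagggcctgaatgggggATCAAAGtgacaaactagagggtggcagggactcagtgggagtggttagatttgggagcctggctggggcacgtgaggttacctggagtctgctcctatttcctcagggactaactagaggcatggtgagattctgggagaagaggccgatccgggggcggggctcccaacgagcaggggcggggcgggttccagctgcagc

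The match begins 104 bases before the start of Sp5, 117 before that of Dkk1 and 202 before the downstream start of Tnfrsf19, where it reads ATCAAAG, the reverse complement of CTTTGAT. A match of 7 bases is a description of the sequence and not a binding site, and the absence of these letters in the window shown for Nkd1 says nothing about more distant elements. Except for Sp5 and the upstream start of Tnfrsf19, the RefSeq starts lie inside the genes as annotated in GENCODE. The window of Nkd1 begins at 88527383, downstream of the GENCODE start of the gene at 88521354. The bases before that GENCODE start were not searched. For Dkk1 the match itself falls within the annotated first exon, so its window is not shown as a promoter. The 3 genes with a match did not share a pattern: Sp5 rose, Tnfrsf19 was not called and Dkk1 was too low to test.

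Per kilobase of annotated exon, Notum, Tnfrsf19 and Znrf3 were the highest members, in this order, in both media. In 2i, Notum stood at 24.8 ± 2.3, Tnfrsf19 at 8.02 ± 0.354, Znrf3 at 3.22 ± 0.232, Apcdd1 at 1.82 ± 0.075 and Sp5 at 0.509 ± 0.00296 CPM per kilobase, and the libraries of neighbours in this order did not overlap. Dkk1 (0.147), Nkd1 (0.13), Wif1 (0.103) and Rnf43 (0.0704) followed, each overlapping the next, and Lgr5 was lowest at 0.0103. In BRD0705/PD03, Notum stood at 12.4 ± 0.621, Tnfrsf19 at 7.4 ± 1.49 and Znrf3 at 2.65 ± 0.058, and Sp5 (1.34 ± 0.246) stood above Apcdd1 (0.552 ± 0.0509), the reverse of their order in 2i. Nkd1 came next at 0.318 ± 0.0593, and Dkk1 at 0.108 overlapped Rnf43 at 0.0783. Exon lengths are the union of all annotated transcripts, which for Apcdd1 reaches 12.9 kilobases, so the level of a gene that uses a shorter transcript is understated.

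Several members were ordered by library as the fibroblast markers were within BRD0705/PD03, where the summed marker level ranged from 1108 CPM in replicate 1 to 1652 CPM in replicate 3. Sp5, Nkd1, Tnfrsf19, Apcdd1 and Znrf3 were lowest in replicate 1 and highest in replicate 3, and Notum was highest in replicate 1 and lowest in replicate 3. The summed level of the 8 ESC markers also rose in this order (2641, 2803 and 2826 CPM). Taken singly, only Tfcp2l1 of these markers did so (367, 435 and 465 CPM). In 2i the fibroblast level differed little between libraries (634 to 662 CPM), where Sp5 was nearly constant (1.06 to 1.08 CPM) and Nkd1 was not (0.418 to 0.828 CPM). The mean log2 CPM of the fibroblast genes Col1a1, Col1a2, Col3a1, Dcn and Postn served as this covariate. With it Sp5, Nkd1 and Znrf3 were not called, Notum (-0.81 ± 0.20, adjusted p = 0.00923) and Apcdd1 (-2.14 ± 0.26, adjusted p = 5.29e-06) were still called lower, and Tnfrsf19 was called lower. Group and covariate overlap strongly in 6 libraries, and standard errors of the 7 members were 3.12 times larger in the median. Those of all tested genes were 3.01 times larger. The part of feeder RNA in the levels of Sp5, Nkd1 and Tnfrsf19 was not tested beyond this fit.

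**Figure D3:**
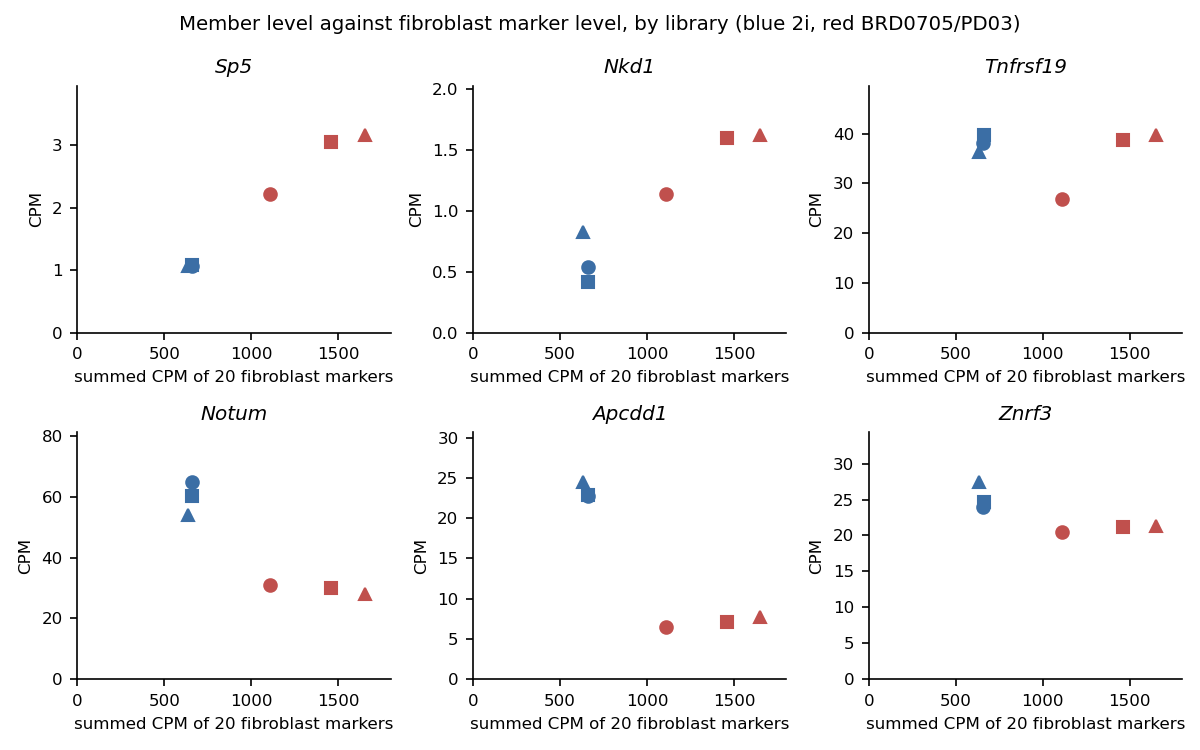
CPM of 6 members on the y axes (linear, from 0) against the summed CPM of 20 fibroblast markers on the x axis, 1 point per library, with circles, squares and triangles for replicates 1, 2 and 3. In BRD0705/PD03 (red), Sp5, Nkd1 and Tnfrsf19 are lowest in replicate 1, at 2.22, 1.14 and 26.9 CPM, where the fibroblast level is also lowest. The summed ESC marker level, not plotted, is lowest there too.

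**Figure D4:**
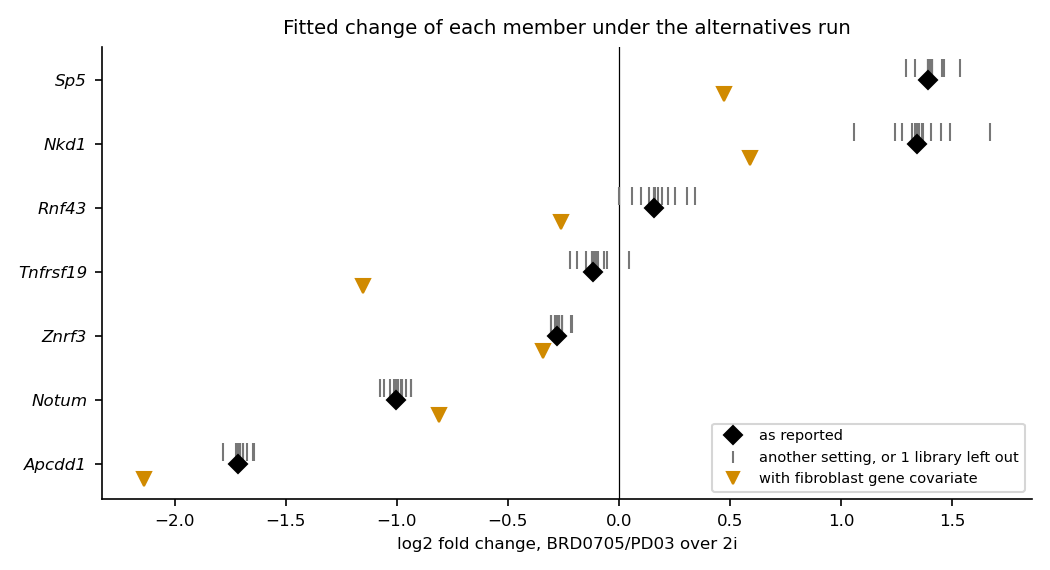
Log2 fold change of BRD0705/PD03 over 2i on the x axis for the 7 tested members as reported (diamonds), under the other settings and with 1 library left out (ticks), and with the fibroblast covariate (triangles). Sp5 and Nkd1 move from 1.39 and 1.34 to 0.47 and 0.59 with the covariate, and Tnfrsf19 from -0.12 to -1.15.

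Axin2, the scaffold protein gene most used as a readout of beta-catenin activity, was near its 2i level in BRD0705/PD03 replicates 2 and 3. It held 14.4, 19.5 and 19.7 CPM in BRD0705/PD03 and 20.6, 19.4 and 21.3 CPM in 2i. Replicate 1 of BRD0705/PD03 again lay below all other libraries, and the gene was not called (-0.19 ± 0.11, adjusted p = 0.191). It was called lower with the fibroblast covariate (-0.98 ± 0.23, adjusted p = 0.00452).

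Among 28 other antagonists and feedback genes of the pathway, 22 could be tested, of which 13 were called higher, 3 lower and 6 not called, with a median of 0.28. Shisa2, which keeps Frizzled and FGF receptors from the cell surface, rose from 7.54 ± 0.693 to 44.3 ± 1.92 CPM (2.55 ± 0.07, adjusted p = 6.04e-16). Sfrp2, a secreted decoy that resembles the ligand-binding part of Frizzled, rose from 1.33 ± 0.157 to 12.6 ± 0.999 CPM (3.21 ± 0.13, adjusted p = 9.55e-14). Sp8, a transcription factor closely related to Sp5, rose from 0.633 ± 0.0173 to 3.96 ± 0.78 CPM (2.64 ± 0.21, adjusted p = 2.56e-09), and Dact1, a partner of Dishevelled, from 7.92 ± 0.254 to 15.7 ± 1.86 CPM (0.98 ± 0.09, adjusted p = 3.25e-08). The share called in this list was 72.7%, against 61.4% of all tested genes (30.1% higher and 31.4% lower). With the fibroblast covariate 4 of its members were called higher and 2 lower. Over all tested genes that fit called 2245 higher and 2954 lower, against 6138 and 6406 without the covariate. Of the 13 called higher, 2 (Frzb and Shisa3) lay under the filter level of 0.335 CPM in every 2i library, and Dkkl1, called lower, in every BRD0705/PD03 library, so these could pass only by differing. The last 3 genes are named for this, after their values were seen.

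The partners on which the antagonists act are the R-spondins, the Wnt proteins and their receptors. The counts of calls in these lists stand against 30.1% of all tested genes called higher and 31.4% called lower. With the fibroblast covariate, calls as higher went from 3 to 2 for R-spondins and their receptors, from 8 to 2 for Wnt ligands and from 5 to 2 for Frizzled and Lrp genes. Over all tested genes they went from 6138 to 2245. Of 6 R-spondins and other Lgr receptors, 5 were tested and 3 were called higher, with a median of 1.20, and edgeR called 0 lower (0 at an unadjusted p under 0.05, and 0 by DESeq2). Rspo1 stood at 1.77 ± 0.144 against 0.349 ± 0.176 CPM in 2i (2.36 ± 0.29, adjusted p = 1.13e-06) and Rspo3 at 2.57 ± 0.759 against 0.877 ± 0.114 CPM (1.59 ± 0.24, adjusted p = 1.49e-05). Rspo1 lay under the filter level of 0.335 CPM in 2i replicates 1 and 2 (0.237 and 0.259 CPM) and passed only through BRD0705/PD03. Within BRD0705/PD03, Rspo3 was 1.75, 2.68 and 3.26 CPM in replicates 1 to 3. This was the order of the fibroblast level and of the summed ESC markers, of which only Tfcp2l1 had it singly. Of 21 genes of Wnt ligands and their secretion, 12 were tested, and 8 were called higher and 1 lower (1 to 4 lower when any 1 library was left out), with a median of 0.79. Wnt5a rose from 1.63 ± 0.125 to 6.0 ± 0.436 CPM (1.86 ± 0.14, adjusted p = 1.61e-09), and Porcn, which attaches the fatty acid that Notum removes, from 2.16 ± 0.46 to 5.06 ± 0.52 CPM (1.26 ± 0.16, adjusted p = 1.43e-06). Wnt3 had 80, 66 and 97 counts in BRD0705/PD03 and 1, 8 and 5 in 2i, and Wnt8a had 25, 28 and 53 against 3, 4 and 2. Both are among the 8, but they lay under the filter level in every 2i library and could be tested only because BRD0705/PD03 was higher. Wnt2b, also among the 8, lay under it in 2i replicates 2 and 3 (0.219 and 0.197 CPM) and passed only through BRD0705/PD03. Wnt6, the 1 called lower, lay under it in BRD0705/PD03 replicates 1 and 2 (0.215 and 0.109 CPM) and passed only through 2i. Of 12 Frizzled and Lrp genes, all tested, 5 were higher, 3 lower and 4 not called, with a median of 0.10. Fzd7 (2.66 ± 0.05) and Fzd2 (2.17 ± 0.10) rose, while Fzd9 (-1.72 ± 0.21) and Lrp5 (-0.40 ± 0.05) fell.

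**Figure D5:**
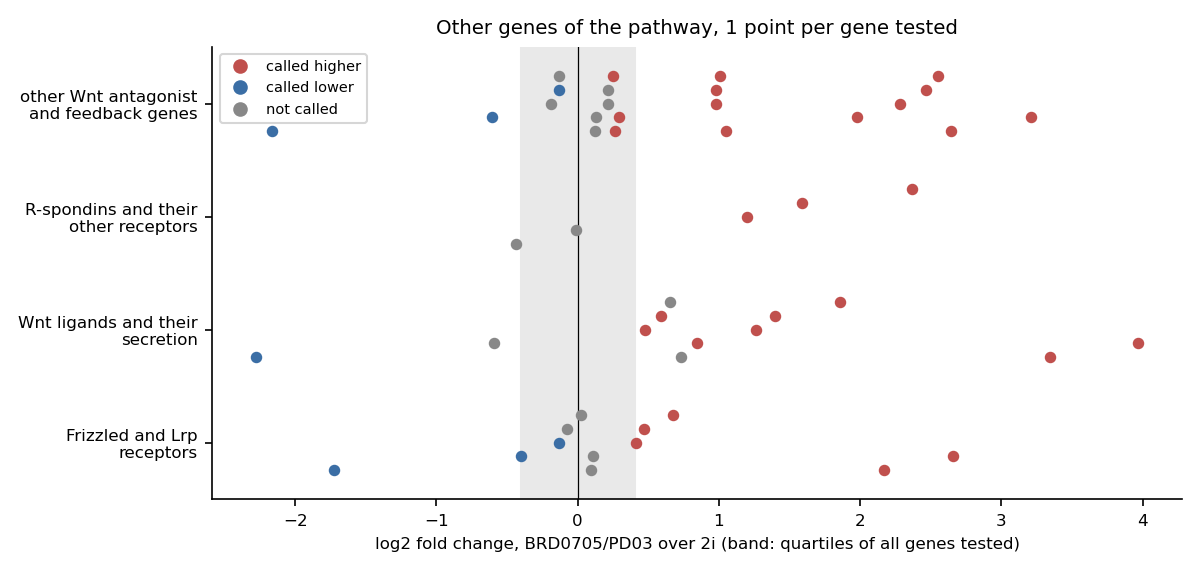
Log2 fold change of BRD0705/PD03 over 2i on the x axis for each tested gene of the 4 other pathway lists, coloured by its call, with the quartiles of all tested genes as a grey band. Calls as higher outnumber calls as lower in each list, 13 to 3, 3 to 0, 8 to 1 and 5 to 3 from top to bottom, where 30.1% of all tested genes were called higher and 31.4% lower. With the fibroblast covariate these counts are 4 to 2, 2 to 0, 2 to 1 and 2 to 1. Over all tested genes they are 2245 to 2954 with it and 6138 to 6406 without it. Frzb, Shisa3, Rspo1, Wnt2b, Wnt3 and Wnt8a, called higher, passed the filter only through BRD0705/PD03. Dkkl1 and Wnt6, called lower, passed it only through 2i.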

How the data were processed

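The deposited tables give, for each of 6 libraries, estimated counts per gene symbol as whole numbers with no scaling between libraries by the authors. Per the submitters' processing notes, Salmon and mm10 were used. No source used here gives the version of Salmon, the annotation or the strand setting. Libraries were made from ribosome-depleted total RNA, per the labels. Groups and replicate numbers came from sample titles.

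Members, gene lists, tests and the naming rule were chosen with earlier results of these data known. The rule named the 10 members, Axin2 and, of each pathway list, up to 4 called genes with the smallest p. Frzb, Shisa3, Dkkl1, Wnt2b and Wnt6 fall outside it and were named for how they passed the filter, after their values were seen. The fit used edgeR 4.0.16 in R 4.3.3 on all genes (filterByExpr, TMM factors, robust quasi-likelihood test, group as the only term, two-sided, Benjamini-Hochberg adjustment over 20422 genes, threshold 0.05). CPM use effective library sizes. SE is the size of a log2 fold change over the square root of F. The steps were tested on simulated data. Alternatives were DESeq2 1.42.0, other scaling factors and filters, thinning to 16968959 counts, a test against a fold of 1.5, a block for replicate number, a fibroblast covariate (log2 of CPM plus 0.1), and leaving out each library. Coordinates and exon lengths came from GENCODE M21 on GRCm38, which is mm10, matched by symbol. No pair of libraries within a group agreed within sampling noise (chi-square per degree of freedom of 2.77 to 9.84 over genes with at least 20 counts). Exact intervals and the level of 3 counts cover counting error only.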

Additional observations from a re-analysis of the deposited data

How the results depend on the processing

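Of the 5 called members, Sp5, Nkd1, Notum and Apcdd1 kept their call and direction under all 15 alternatives, except that Sp5 and Nkd1 lost theirs with the fibroblast covariate. Znrf3 lost its call with that covariate and against a fold of 1.5. With 1 library left out, log2 fold changes ranged from 1.29 to 1.54 for Sp5, 1.06 to 1.67 for Nkd1, -1.06 to -0.94 for Notum, -1.78 to -1.64 for Apcdd1 and -0.30 to -0.21 for Znrf3, and each stayed called. Rnf43 was called under none of 14 alternatives and fell below a filter of a mean of 1 CPM. Dkk1 passed the filter without BRD0705/PD03 replicate 2, 2i replicate 1 or 2i replicate 3 and was not called (adjusted p of 0.22 to 0.875).

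With the fibroblast covariate 0 members were called higher (0 at an unadjusted p under 0.05 by edgeR, and DESeq2 was not run with it). Calls with it also numbered 4 higher and 2 lower among other antagonists, and 2 higher among R-spondins and their receptors. They were 2 higher and 1 lower among Wnt ligands and the same among Frizzled and Lrp genes. All of these stand among 5199 calls over all genes (2245 higher, 2954 lower). Against a fold of 1.5 calls numbered 10 higher and 1 lower among other antagonists, and 3 higher among R-spondins and their receptors. They were 5 higher and 1 lower among Wnt ligands, and 2 higher and 1 lower among Frizzled and Lrp genes. Over all genes that test called 5094 (2498 higher, 2596 lower). Wnt ligands called lower numbered 3 without a filter, 2 after thinning and 0 under the filter on a mean of 1 CPM, where fewer genes were tested. With 1 library left out they were 1 to 4: 4 without BRD0705/PD03 replicate 1, 3 without its replicate 2 or 3, and 2 without 2i replicate 1 or 3.

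With the replicate number as a block, 2 members were higher and 3 lower, as without it, and 12435 genes were called. Same-numbered libraries did not deviate together (correlations of -0.0422, 0.0746 and -0.0474), and not every library correlated best with its own number. The counts of Dkk1, Lgr5 and Rnf43, 2 to 25 per library, limit what can be said of them.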
